A study of Mus musculus with 6 samples.

Results

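The Aurora kinases and the chromosomal passenger complex were followed in metaphase II (MII) mouse oocytes matured in culture or in the animal. The members were 7 genes chosen by name: the kinases *Aurka*, *Aurkb* and *Aurkc*, the complex subunits *Incenp*, *Birc5* (survivin) and *Cdca8* (borealin), and the kinase *Haspin*. All 7 were found among the 60193 rows of the expression table, and all 7 had a mean expression of at least 1 FPKM and so entered the test, with 18818 rows in all. FPKM is a level in fragments scaled to transcript length and library size.

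The oocytes came from ICR mice aged 42-45 weeks, which are late in their reproductive life. All mice received pregnant mare's serum gonadotropin (PMSG, 5 IU). For the IVM group, germinal vesicle oocytes were taken from the ovary, stripped of cumulus cells and cultured in M16 medium for 12 h. For the IVO group, the mice also received human chorionic gonadotropin (hCG), and ovulated oocytes were taken from the oviduct 14 h later and freed of cumulus cells with hyaluronidase. The groups therefore differed in hormone treatment, in the presence of cumulus cells during maturation and in time as well as in the place of maturation, and these cannot be told apart. Each group had 3 biological replicates, and each replicate pooled 20 oocytes from 3 mice.

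Aurora kinases are serine/threonine kinases of cell division. Aurora A works at spindle poles and microtubule organizing centres. Aurora B and, in germ cells, Aurora C bind INCENP, survivin and borealin to form the chromosomal passenger complex, which sits on chromosomes and centromeres and releases wrongly attached microtubules. Haspin phosphorylates histone H3 at the centromere, a mark to which survivin binds. MII oocytes are transcriptionally silent and live on stored mRNA, and the length of the poly(A) tail of a stored mRNA is tied to its translation and stability. Libraries in this study were primed on poly(A), so a lower level can be less mRNA or a shorter tail, and these cannot be told apart, nor can a change in every oocyte from one in part of the pool.

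The 3′ ends of the transcripts are shown because they hold the elements that act on the tail. Each line gives 30 bases of the mRNA strand from the GENCODE vM39 canonical transcript on GRCm39, 5′ to 3′, with the elements found in capitals. The polyadenylation signal (AATAAA or ATTAAA) was searched in the last 40 bases, and the cytoplasmic polyadenylation element (CPE, TTTTAT or TTTTAAT) in the last 100 bases, on the mRNA strand only.
*Aurka* (chr2:172198155-172198184, minus strand): aaaggctattTTTTATgttggagttctgtc
*Aurkb* (chr11:68942450-68942479, plus strand): aacaTTTTATAATAAAgtcttaaatgtttc
*Aurkc* (chr7:7006043-7006072, plus strand): tctcTTTTATgaagtgatgttaATTAAAac
*Incenp* (chr19:9846569-9846598, minus strand): cttaaaaATTAAAaagttattttcatacag
*Birc5* (chr11:117746532-117746561, plus strand): acggAATAAAatcacttgaaaaagtggact
*Cdca8* (chr4:124812263-124812292, minus strand): tttcAATAAAtcttagtttgccatggtttt
*Haspin* (chr11:73026311-73026340, minus strand): aacaggaaAATAAAtgtctctgtggctctc

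All 3 Aurora kinases held a CPE, and so did *Incenp*, where it stops 43 bases before the end and lies upstream of the window printed. *Birc5*, *Cdca8* and *Haspin* held none in the last 100 bases. In *Aurkb* the CPE and the polyadenylation signal were adjacent, with 0 bases between them, while in *Aurkc* 12 bases lay between them. Among 19548 coding transcripts searched in the same way, 16.9% held a CPE, 71% a polyadenylation signal and 12.4% both. *Aurka* was the member with no polyadenylation signal in its last 40 bases. The canonical transcripts of *Aurka* and *Incenp* have 3172 and 6228 bases, while the lengths listed with their FPKM are 1905 and 2643. The gap was smaller for *Cdca8* (1634 and 1264), *Aurkc* (1408 and 1154), *Aurkb* (1961 and 1831) and *Birc5* (980 and 947). For *Haspin* both lengths were 2810. Except for *Haspin*, the 3′ ends searched and printed may therefore not be those of the mRNA that was measured, and this was not tested. A match is a string of letters and does not show that the element is used.

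The 6 libraries were similar in depth but not in every property. The deposited table holds no read counts. The steps between low FPKM values placed the depth near 16500000 to 19200000 fragments in IVM samples and 17600000 to 18400000 in IVO samples, an estimate under which 77.8 to 81.0% of the values used came within 0.15 of a whole fragment. The same estimate gave mean fragment lengths of 205 to 210 bases in IVM and 235 to 275 bases in IVO. The summed FPKM was 1826738 to 2111776 for the IVM libraries and 1560813 to 1643682 for the IVO libraries. All 10 oocyte markers were present, with summed levels of 11334 to 13893 FPKM in IVM and 8184 to 9176 FPKM in IVO. Of 11 cumulus and granulosa markers only *Fshr* and *Cyp19a1* reached a mean of 1 FPKM, *Amh* and *Pgr* were listed at 0 in all samples, and the sum was 23.1 to 33.0 FPKM in IVM and 30.2 to 35.4 FPKM in IVO. Below 1 FPKM, *Tnfaip6* (means 0.0567 in IVM and 0.427 in IVO), *Has2* (0.0933 and 0.3), *Ptx3* (0.02 and 0.113) and *Ptgs2* (0.0967 and 0.36) were higher in IVO. *Foxl2*, *Inhba* and *Lhcgr* were lower. Of 5 oviduct markers *Epcam* alone reached a mean of 1 FPKM, with sums of 2.93 to 3.16 FPKM in IVM and 3.40 to 5.76 FPKM in IVO, and none of 4 blood markers did, with sums of 0 to 1.04 FPKM and 0.01 to 5.18 FPKM. Scaling each library to the same summed FPKM was among the alternatives given below. The part of the other differences in the results was not tested.

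The background over all genes frames the comparison. With the thresholds |log2FC| ≥ 1 and an adjusted P-value under 0.05 (limma on log2(FPKM + 1), Benjamini-Hochberg adjustment), 17.9% of all tested rows were differentially expressed genes (DEGs) lower in IVO oocytes and 0.606% were DEGs higher in IVO oocytes, 18.5% together. Without the fold threshold, 21.5% of rows were lower and 1.87% higher at an adjusted P-value under 0.05. The median log2FC, IVO minus IVM, was -0.30 over all tested rows and -0.15 over the 7 members. When each library was instead scaled by the median of its ratios to a common reference, the median over all rows became -0.04, and the share of DEGs that were lower in IVO changed from 96.7% to 84.6%. With quantile normalization these were 0.17 and 59.0%.

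Of the 7 members, 2 were DEGs lower in IVO oocytes, *Aurkb* and *Birc5*, and 0 were DEGs higher. The same 2 genes passed without the fold threshold. Against a background of 17.9%, a count of 2 among 7 genes does not set the members apart as a group. *Aurkb* and *Birc5* were the DEGs in each of 17 alternative analyses as well.

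**Figure D1:**
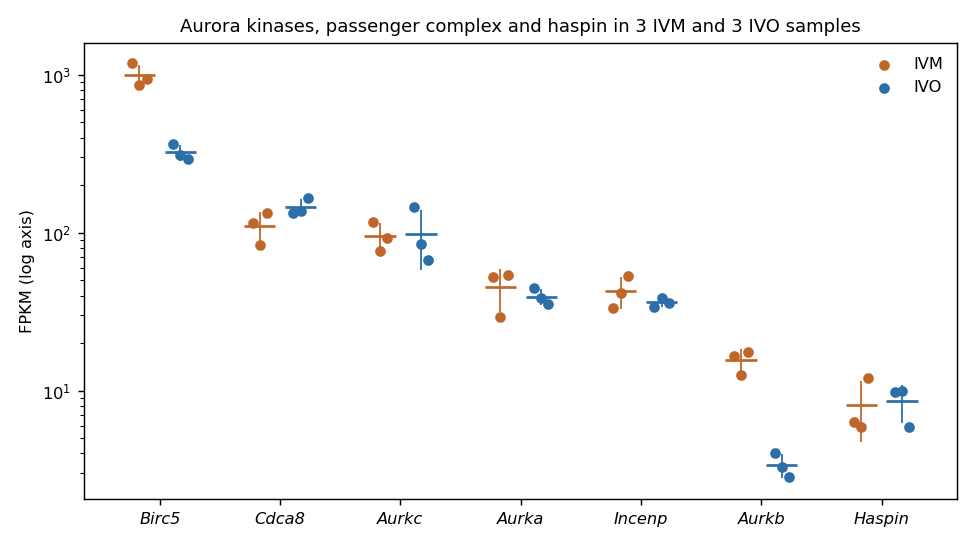
FPKM (log axis) of the 7 genes in the 3 IVM (orange) and 3 IVO (blue) samples, with points for samples, horizontal lines for group means and vertical lines for 1 SD to each side. *Birc5* and *Aurkb* lie lower in every IVO sample than in any IVM sample; the other genes overlap or, for *Cdca8*, nearly touch at 133.47 and 133.56 FPKM.

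*Aurkb* (ENSMUSG00000020897, GRCm39 chr11:68936467-68944764, plus strand) encodes the catalytic subunit of the passenger complex in somatic cells. Its level was 16.59, 12.62 and 17.67 FPKM in the IVM samples and 4.0, 3.28 and 2.84 FPKM in the IVO samples. Every IVO sample was below every IVM sample, with no value between 4.0 and 12.62 FPKM. The means were 15.6 ± 2.66 and 3.37 ± 0.586 FPKM (SD, n = 3 each), so IVM oocytes held 4.63 times the level of IVO oocytes. The log2FC was -1.92 ± 0.22 (SE; 95% interval -2.45 to -1.40; limma adjusted P = 0.00223). The values correspond to about 393 to 543 fragments in IVM and 80 to 115 fragments in IVO samples, estimated from the inferred depth.

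*Birc5* (ENSMUSG00000017716, chr11:117740040-117746581, plus strand) encodes survivin, the subunit that reads the haspin mark. It was the most abundant member, at 1180.62, 858.12 and 944.02 FPKM in IVM and 363.82, 311.53 and 292.85 FPKM in IVO samples. The groups did not overlap. The means were 994 ± 167 and 323 ± 36.8 FPKM, and the IVM mean was 3.08 times the IVO mean. The log2FC was -1.61 ± 0.18 (95% interval -2.03 to -1.19; limma adjusted P = 0.00202). Groups that did not overlap, with IVO lower, were found in 32.6% of all tested rows.

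Both changes were larger than the shift of all genes. After median-ratio scaling the log2FC was -1.65 for *Aurkb* and -1.29 for *Birc5*, and after quantile normalization, the alternative with the smallest changes, -1.44 and -1.14. Leaving out any 1 sample gave -2.06 to -1.83 for *Aurkb* and -1.71 to -1.48 for *Birc5*.

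The other kinases did not pass the test. *Aurka* (ENSMUSG00000027496, chr2:172198109-172212849, minus strand), the spindle pole kinase, was at 52.20, 29.26 and 54.25 FPKM in IVM and 44.32, 38.31 and 35.52 FPKM in IVO samples. All 3 IVO values fell between the lowest and highest IVM values. The log2FC was -0.15 ± 0.27 (95% interval -0.79 to 0.49; limma adjusted P = 0.731). Its exons overlap on the opposite strand those of *Cstf1*, at 6.03 to 11.14 FPKM over the 6 samples, and *Fam210b*, at 0.14 to 0.47 FPKM, and the library kit does not mark strand.

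*Aurkc* (ENSMUSG00000070837, chr7:6998299-7006097, plus strand) encodes the germ cell member of the family, which joins the passenger complex in meiosis. It was at 116.48, 76.55 and 92.37 FPKM in IVM and 144.48, 84.95 and 66.79 FPKM in IVO samples. The IVO samples held both the highest and the lowest value of the 6. The means were 95.1 and 98.7 FPKM, and the log2FC was 0.00 ± 0.31 (95% interval -0.74 to 0.74; limma adjusted P = 0.998).

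The make-up of the kinase transcripts differed between the groups mainly in *Aurkb*. On the FPKM scale, which is per length, *Aurkb* made up 8.95 to 10.8% of the summed level of the 3 kinases in IVM samples and 2.07 to 2.70% in IVO samples. *Aurkc* made up 56.2 to 64.6% in IVM and 63.5 to 74.9% in IVO, and *Aurka* 24.7 to 33.0% and 23.0 to 33.8%. The level of *Aurkc* was 7.02, 6.07 and 5.23 times that of *Aurkb* in the IVM samples and 36.1, 25.9 and 23.5 times in the IVO samples.

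**Figure D2:**
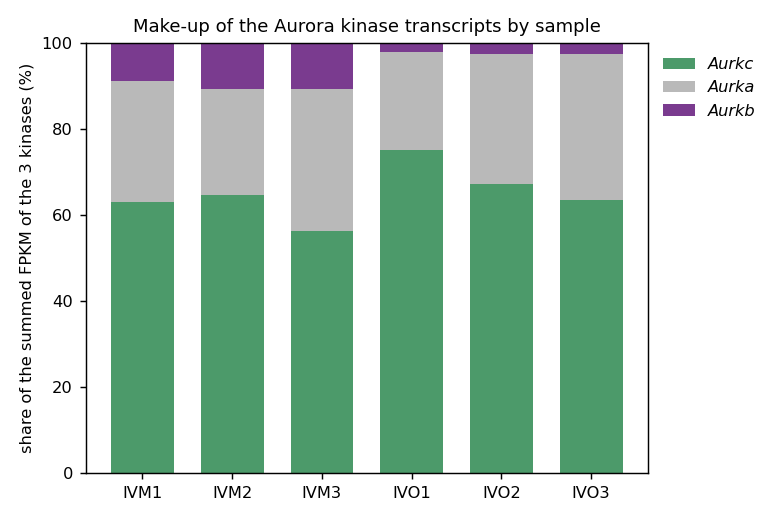
Share (%) of *Aurkc* (green), *Aurka* (grey) and *Aurkb* (purple) in the summed FPKM of the 3 kinases, 1 bar per sample. The *Aurkb* share is 8.95 to 10.8% in the 3 IVM bars and 2.07 to 2.70% in the 3 IVO bars.

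Differences between 2 kinases within a sample do not depend on how the library is scaled, apart from the pseudocount. The difference of log2(FPKM + 1) between *Aurkc* and *Aurkb* was 2.52 ± 0.21 in IVM and 4.44 ± 0.37 in IVO oocytes (SD, n = 3 each; 1.92 larger in IVO; exact two-sided permutation test P = 0.1, the smallest that 3 against 3 samples allow; adjusted over the 3 pairs, 0.15). Between *Aurka* and *Aurkb* it was 1.44 ± 0.25 in IVM and 3.21 ± 0.04 in IVO (1.77 larger in IVO; exact permutation P = 0.1; adjusted 0.15). In both pairs every IVO sample was above every IVM sample, so each P-value sits at the lowest this permutation test can reach. Both pairs hold *Aurkb* and largely carry its log2FC of -1.92, so they are not 2 independent results. Between *Aurkc* and *Aurka* it was 1.09 ± 0.30 in IVM and 1.23 ± 0.41 in IVO (0.15 larger in IVO; exact permutation P = 0.7).

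The level of *Aurkc* carries an uncertainty that the other kinases do not. The table lists 10 further rows with the same KEGG ortholog, all annotated as pseudogenes. Of these, 9 lie on chromosome 7 between 10544707 and 11328121 and 1, *Gm12463*, lies on chromosome 4. Both *Gm12463* (chr4:44752277-44753125) and *Gm7789* (chr7:10722346-10730289) had higher means than *Aurkc* in both groups. *Gm12463* was at 281 ± 16.3 FPKM in IVM and 284 ± 116 FPKM in IVO, with 298.19, 265.86 and 277.97 FPKM in the IVM samples and 407.95, 264.64 and 178.75 FPKM in the IVO samples. *Gm7789* was at 247 ± 22.6 FPKM in IVM and 245 ± 58.3 FPKM in IVO. *Gm7207*, named *Aurkc-ps* in GENCODE vM39, was at 21.5 ± 2.81 and 31.3 ± 7.84 FPKM.

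The sequences show how close these rows are. The lines give 60 bases near the end of the *Aurkc* coding sequence and the aligned bases of both pseudogenes, each on its own sense strand, with capitals at the positions where the 3 differ.
*Aurkc* (chr7:7005881-7005940, plus strand): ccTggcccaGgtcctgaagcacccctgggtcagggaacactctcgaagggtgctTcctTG
*Gm7789* (chr7:10722497-10722556, minus strand): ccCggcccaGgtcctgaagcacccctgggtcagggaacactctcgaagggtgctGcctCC
*Gm12463* (chr4:44752299-44752358, minus strand): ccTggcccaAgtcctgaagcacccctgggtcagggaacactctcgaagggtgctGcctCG

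Counted from 1 at the 5′ end of the window, with the *Aurkc* base first, *Gm12463* differed by G10A, T55G and T59C, and *Gm7789* by T3C, T55G, T59C and G60C. Over their whole aligned length *Gm12463* was 99.3% identical to the *Aurkc* transcript (842 of 848 bases), with a longest shared run of 704 bases. *Gm7789* was 95.8% identical, with a longest run of 85 bases. Of the 1259 stretches of 150 bases, the read length, in the canonical *Aurkc* transcript, 555 (44.1%) occur whole in *Gm12463* and none in *Gm7789*. That transcript has 1408 bases against 1154 listed with the FPKM, so the share in the measured mRNA may differ. A read from such a stretch cannot be assigned by its own sequence, and the counting software divides it by estimate. By contrast no stretch of 150 bases was shared among *Aurka*, *Aurkb* and *Aurkc*, whose transcripts were 76.3 to 77.2% identical where they aligned.

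**Figure D3:**
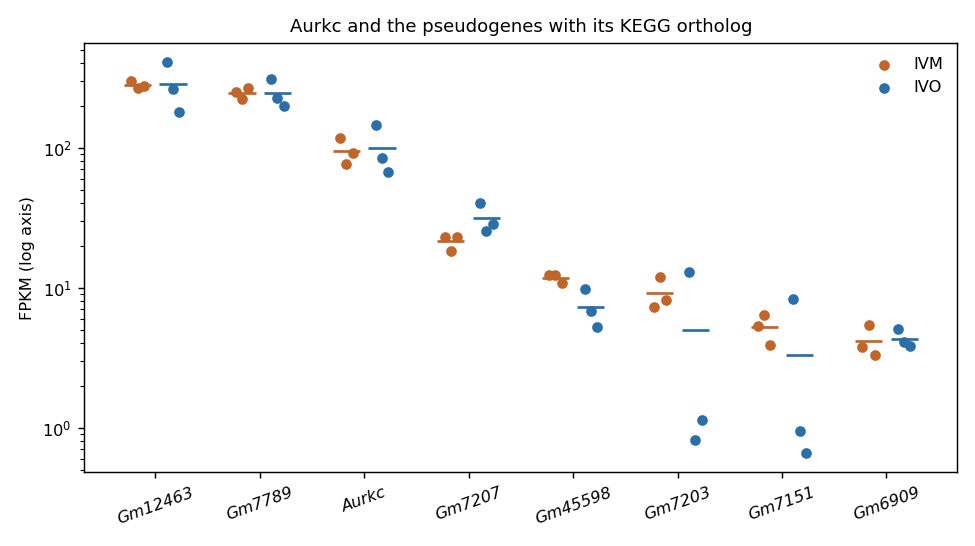
FPKM (log axis) of *Aurkc* and of the 7 pseudogene rows of its family that were above 0 in all samples and had a mean of at least 1 FPKM, with points for the IVM (orange) and IVO (blue) samples and lines for group means. *Gm12463* and *Gm7789* lie above *Aurkc* in both groups, and the IVO points of all 3 spread more widely than the IVM points.

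None of the 8 pseudogene rows tested was a DEG, against 18.5% of all tested rows. The least precise were *Gm7203* (log2FC -1.39 ± 0.74, SE), *Gm39481* (0.01 ± 0.72) and *Gm7151* (-0.98 ± 0.63). Summed over the 11 rows, the family was at 623.7 to 715.4 FPKM in IVM and 486.2 to 939.9 FPKM in IVO samples, and *Aurkc* was 12.3 to 16.3% of that sum in every sample. The summed level, an alternative added after the data were seen, gave a log2FC of -0.05 ± 0.25 (limma adjusted P = 0.916), so neither *Aurkc* alone nor the family passed the test. Pseudogenes with the KEGG ortholog of other members (2 of *Aurka* and 1 each of *Aurkb*, *Birc5* and *Haspin*) were listed at 0 in all samples. *Incenp* and *Cdca8* had no further row with their KEGG ortholog. Pseudogenes without that annotation would not have been found.

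Among the subunits, *Birc5* was the one DEG. *Incenp* (ENSMUSG00000024660, chr19:9846569-9876924, minus strand), the scaffold that binds and activates the kinase, was at 33.29, 41.56 and 52.85 FPKM in IVM and 34.02, 38.73 and 36.07 FPKM in IVO samples. The groups overlapped, and the log2FC was -0.20 ± 0.22 (limma adjusted P = 0.549). Its exons overlap on the opposite strand those of *Gm50340*, at 13.92 to 20.31 FPKM in IVM and 4.21 to 6.88 FPKM in IVO samples, and without strand their shared 418 bases cannot be told apart.

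*Cdca8* (ENSMUSG00000028873, chr4:124812257-124833104, minus strand), borealin, was at 115.17, 83.22 and 133.47 FPKM in IVM and 133.56, 137.82 and 164.90 FPKM in IVO samples. Every IVO sample was above every IVM sample, but by as little as 133.56 against 133.47 FPKM. Groups apart in this direction were found in 9.62% of all tested rows. The log2FC was 0.41 ± 0.22 (95% interval -0.11 to 0.93; limma adjusted P = 0.225). After quantile normalization it was 0.93 with an adjusted P of 0.0275, still under the fold threshold.

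The ratio of *Birc5* to *Cdca8* was 10.3, 10.3 and 7.07 in IVM and 2.72, 2.26 and 1.78 in IVO samples. That of *Birc5* to *Incenp* was 35.5, 20.6 and 17.9 in IVM and 10.7, 8.04 and 8.12 in IVO samples. Both ratios carry the lower level of *Birc5* in IVO that is given above. *Cdca8* to *Incenp* was 2.00 to 3.46 in IVM and 3.56 to 4.57 in IVO. *Birc5* to *Aurkb*, both lower in IVO, was 53.4 to 71.2 in IVM and 91.0 to 103 in IVO. The groups did not overlap in any of these ratios, also not in that of *Cdca8* to *Incenp*, neither of which was a DEG. How often ratios of other gene pairs are apart was not computed, so nothing is read from this.

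*Haspin* (ENSMUSG00000050107, chr11:73026311-73029120, minus strand), a gene of 1 exon, was at 6.36, 5.91 and 12.00 FPKM in IVM and 9.74, 9.97 and 5.92 FPKM in IVO samples. The groups overlapped across nearly the whole range, and the log2FC was 0.10 ± 0.32 (limma adjusted P = 0.856). It varied most among the IVM samples, with a coefficient of variation of 41.9%, and *Aurkc* varied most among the IVO samples, at 41.2%.

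The order of mean levels in IVM oocytes was *Birc5*, *Cdca8*, *Aurkc*, *Aurka*, *Incenp*, *Aurkb* and *Haspin*. The ranges of *Cdca8* and *Aurkc* overlapped, as did those of *Aurka* and *Incenp*, and the other neighbours were apart. In IVO oocytes the order was the same except that *Aurkb*, at 2.84 to 4.0 FPKM, lay below *Haspin*, at 5.92 to 9.97 FPKM. *Birc5* was above 97.9% of tested rows in IVM and 95.3% in IVO, and *Aurkb* above 58.0% and 34.8%.

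Genes that act with the members were taken from 4 lists and read in the same fit. Of 12 activators, partners and targets of Aurora A, 11 were tested and 3 were DEGs lower in IVO, against 17.9% of all tested rows, with a median log2FC of -0.15 against -0.30 over all tested rows. The 4 lists are small, and nothing particular to a list is read from its count. *Cdc25b*, a phosphatase that activates CDK1, went from a mean of 8.79 to 1.27 FPKM (log2FC -2.09; limma adjusted P = 0.0023). *Fzr1*, an activator of the anaphase-promoting complex, went from 9.58 to 2.28 FPKM (-1.56; adjusted P = 0.0351), a call lost with the replicate number as a block, without the filter on low values and on leaving out any 1 sample other than IVM replicate 2. *Cpeb1*, which binds the CPE, went from 69.4 to 31.2 FPKM (-1.10; adjusted P = 0.0146), a call lost without IVM replicate 1. *Bora*, an activator of Aurora A, was higher in IVO under the fold threshold (0.65; adjusted P = 0.037), and *Tpx2*, which holds Aurora A on the spindle, was at 68.7 and 75.3 FPKM (0.13; adjusted P = 0.598). After median-ratio scaling *Cdc25b* was the DEG left of the 3.

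Of 11 recruiters of the passenger complex, 10 were tested and 0 were DEGs in either direction, against 18.5% of all tested rows, with a median log2FC of -0.16. These include the kinase *Bub1* and the shugoshins *Sgo1* and *Sgo2a*, with log2FC values of -0.24, -0.18 and 0.07. Under the fold threshold, *Cdk1*, the kinase that drives entry into metaphase, was at 132 FPKM in IVM and 224 FPKM in IVO (0.78; limma adjusted P = 0.0345), and *Cbx5*, a heterochromatin protein, at 50.4 and 26.1 FPKM (-0.94; adjusted P = 0.0173). After median-ratio scaling *Cdk1* was a DEG higher in IVO.

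Of 11 targets of Aurora B and C, 10 were tested and 1 was a DEG lower in IVO, against 17.9% of all tested rows, and 0 were DEGs higher, against 0.606%, with a median log2FC of 0.12. This was *Kif2c*, a microtubule-depolymerizing kinesin at centromeres, at 25.4 and 12.1 FPKM (-1.01; limma adjusted P = 0.00906), just past the fold threshold and not a DEG after median-ratio scaling or without IVM or IVO replicate 3. *Dsn1*, a kinetochore protein, was at 120 and 209 FPKM (0.80; adjusted P = 0.0125) and became a DEG higher in IVO after that scaling. Of 17 opposing phosphatase genes, 15 were tested and 0 were DEGs, against 18.5% of all tested rows, with a median log2FC of -0.04, and *Ppp1cc* was lower in IVO under the fold threshold (-0.96; adjusted P = 0.0123).

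**Figure D4:**
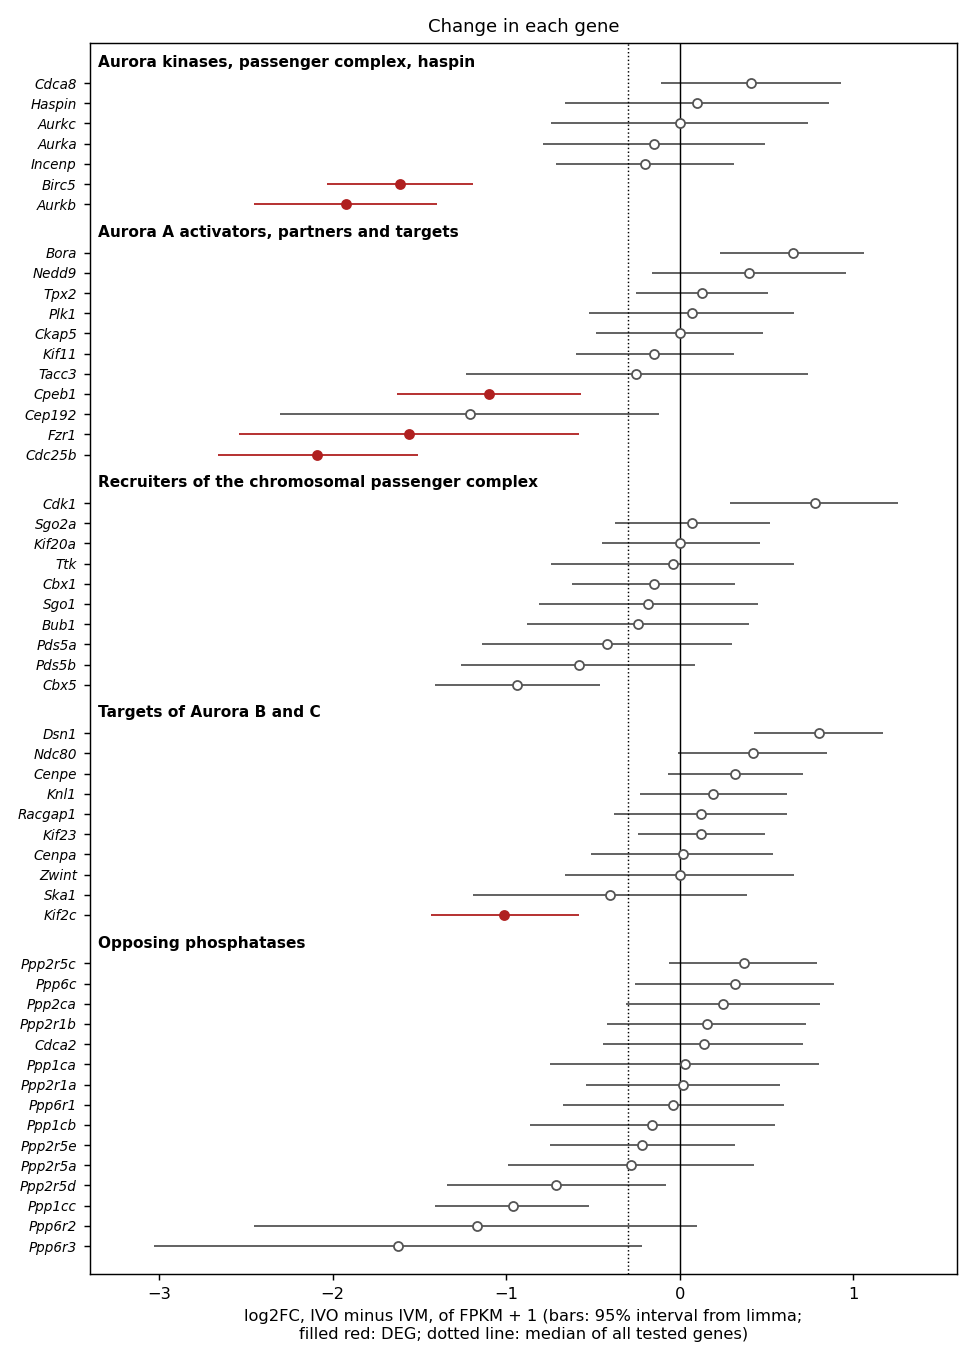
log2FC of FPKM + 1, IVO minus IVM, for the 7 members and the 46 tested genes of the 4 lists, with 95% intervals from limma. Filled red points are DEGs, 6 in all and each lower in IVO, and the dotted line is the median of all tested rows, -0.30.

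The genes whose pattern over the 6 samples was most like a member were taken by the smallest root mean square difference of centred log2(FPKM + 1) among 13153 genes. For *Aurkb* these were *Sult2a7* (0.108), *Pabpc1l* (0.112) and *Ccdc92* (0.114). *Pabpc1l*, a poly(A)-binding protein gene of oocytes, was at 12.67, 9.84 and 12.80 FPKM in IVM and 2.48, 2.08 and 2.39 FPKM in IVO samples. For *Birc5* they were *Nudt5* (0.090), *Agrp* (0.096) and *Pik3cd* (0.096). *Nudt5* was at 172.78, 110.31 and 140.38 FPKM in IVM and 53.86, 47.03 and 38.70 FPKM in IVO samples. For *Cdca8* they were *Tnrc6c*, *Ccnl1* and *Ctbp2*, and for *Haspin* *Zkscan6*, *Ftsj3* and *Matr3*. For *Aurka* they were *Gm14176*, *Mcrs1* and *Garem1*, and for *Aurkc* *Mpped1*, *Clstn2* and *4933416M07Rik*.

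**Figure D5:**
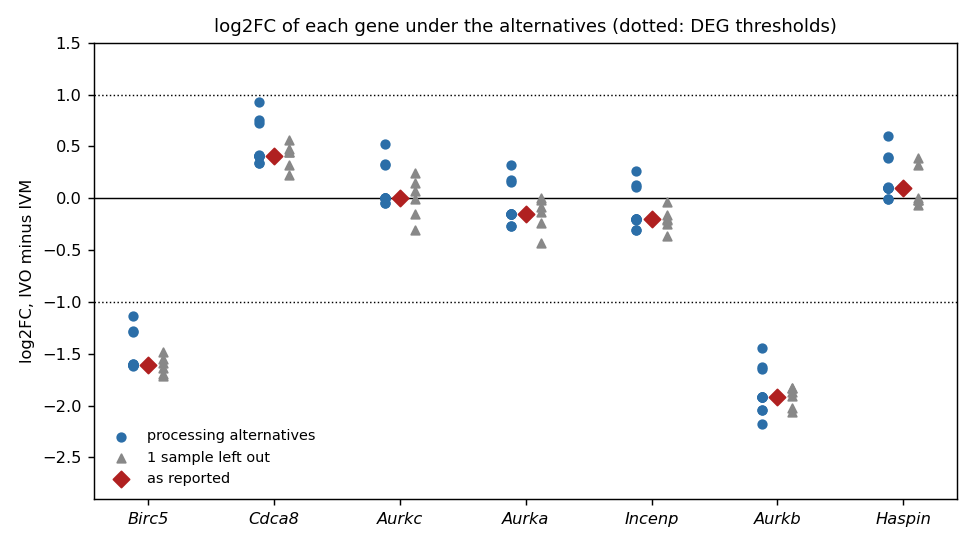
log2FC of each member as reported (red diamonds), under 11 processing alternatives (blue circles) and with 1 sample left out (grey triangles). The *Aurkb* and *Birc5* points all lie below -1, those of *Cdca8* all above 0, and those of *Aurka*, *Aurkc*, *Incenp* and *Haspin* on both sides of or at 0.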

How the data were processed

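RNA from pools of 20 MII oocytes was made into full-length cDNA with SMART-Seq v4 and sequenced as paired reads of 150 bases. The authors trimmed them (SeqPrep, Sickle), mapped them with HISAT2 (2.1.0) against GRCm39 and obtained FPKM per gene with RSEM (1.3.3); the submitters' notes also name DESeq2 (1.24.0). The deposited FPKM table held 53700 Ensembl rows and 6493 assembled loci, a length per row and the authors' group means, which were not used.

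Rows with a mean of at least 1 FPKM were tested on log2(FPKM + 1) with limma (3.58.1, R 4.3.3; trend, group only), two-sided, with Benjamini-Hochberg adjustment over all 18818 rows. A fold change on this scale understates the change of low genes. A DEG had |log2FC| of at least 1 and an adjusted P-value under 0.05. Depth and fragment length were inferred from 10184 genes. Transcripts came from GENCODE vM39 on GRCm39, with 98% of the Ensembl rows matched. Scripts were tested on simulated data. With 200 of 18818 simulated rows changed past the fold threshold, limma called 107 of the 200, and 6 unchanged rows. A gene that was not called here may therefore still have changed.

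The members and lists were chosen with earlier results of these data known. Named genes were the members, *Aurkc-ps*, the DEGs of each list and the 3 nearest patterns of each member (those of *Incenp* are not reported here); *Bora*, *Tpx2*, *Bub1*, *Sgo1*, *Sgo2a*, *Cdk1*, *Cbx5*, *Dsn1*, *Ppp1cc*, the pseudogenes and the overlapping genes were named after their values were seen.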

Additional observations from a re-analysis of the deposited data

How the results depend on the processing

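*Aurkb* and *Birc5* were the members called in all 17 alternatives (11 processing choices and 6 that left out 1 sample), with adjusted P-values up to 0.0172 and 0.0168, and no member was called higher in any. Neither the labels nor the methods state whether samples with the same replicate number were paired. Deviations of same-numbered samples from their group means correlated at -0.06, -0.02 and -0.11, which does not settle it. With the replicate number as a block the 2 members stayed DEGs. All DEGs lower and higher in IVO then went from 3366 and 114 to 2899 and 92. Median-ratio scaling gave 2132 and 387, scaling to the same sum 2131 and 397, quantile normalization 1579 and 1096, the length trend removed 2704 and 186, with the block as well 1989 and 118, and Ensembl genes only 1972 and 84. Leaving out 1 sample gave 2276 to 3174 lower and 82 to 130 higher; the causes were not tested.

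Median-ratio scaling, same sum and quantile normalization each left 1 Aurora A gene lower (*Cdc25b*), 0 targets lower, 1 target higher (*Dsn1*) and 1 recruiter higher (*Cdk1*); quantile normalization also called 1 Aurora A gene higher (*Bora*). With the length trend removed, with or without the block, 1 recruiter was lower (*Cbx5*), and 1 phosphatase (*Ppp1cc*) without and 2 (with *Ppp6r2*) with the block; the replicate block alone called 1 (*Ppp6r2*). *Fzr1* was also lost with the block, with or without the length trend removed, without the filter on low values and in 5 of the 6 fits that left out 1 sample. Leaving out 1 sample gave 1 to 3 Aurora A genes (1 without IVM replicate 1), 0 to 1 targets (0 without IVM or IVO replicate 3), 0 to 1 recruiters (1 without IVO replicate 2) and 0 to 2 phosphatases (2 without IVM replicate 2, 1 without IVO replicate 3) lower. Of the 5 members that were not called, *Cdca8* kept its sign throughout (0.22 to 0.93) and the others changed sign. Under median-ratio scaling, same sum and quantile normalization, *Aurka* was 0.16, 0.18 and 0.32, *Aurkc* 0.32, 0.33 and 0.52, and *Incenp* 0.11, 0.13 and 0.26; *Haspin* was -0.01 with the length trend removed. Leaving out 1 sample gave -0.43 to 0.00 for *Aurka*, -0.31 to 0.24 for *Aurkc* and -0.07 to 0.39 for *Haspin*, and a change in the *Aurkc* to *Aurka* difference as low as -0.08. With 80 to 115 fragments in IVO, *Aurkb* is the member that depth limits most.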
